A study of Rattus norvegicus with 8 samples.

Results

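The regulators of G protein signaling (RGS) are proteins that shorten signals from G protein coupled receptors, and 9 of their genes were followed in thymocytes, the developing T cells of the rat thymus. The members are Rgs1, Rgs2, Rgs3, Rgs4, Rgs10, Rgs14, Rgs16, Rgs18 and Rgs19. They were chosen by gene name, as all probes that the array annotates to one of these names, which gave 9 of the 35561 distinct names in the array's gene column and 11 of the 41012 probes on the array. Rgs4 and Rgs19 have 2 probes each and the others have 1. The thymocytes came from adrenalectomized male Sprague-Dawley rats, with the thymi of 3 rats pooled for a preparation, and the surgery removes the animals' main source of glucocorticoids from Control and Dex cells alike. They were cultured for 6 hours without added hormone (Control, 4 arrays) or with 100 nM dexamethasone, a synthetic glucocorticoid (Dex, 4 arrays). The methods of the study state 3 biological replicates per group while 4 arrays per group were deposited, so the p-values measure the spread between these arrays, part of which may be technical. RNA was hybridized in 1 color to Agilent arrays of 60-base probes, and values are log2 signals after quantile normalization, so a difference of 1 is a doubling.

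A receptor that binds its ligand loads the G alpha subunit with GTP, and both G alpha and the freed G beta gamma pair then act on enzymes and channels. RGS proteins hold G alpha in the shape in which it hydrolyzes GTP and so end the signal, mostly on subunits of the Gi and Gq classes. In lymphocytes, many chemokine and sphingolipid receptors that guide migration couple to Gi. The R4 subfamily, mostly small proteins with little beyond the RGS domain, holds 6 of the members (Rgs1, Rgs2, Rgs3, Rgs4, Rgs16 and Rgs18). The R12 subfamily holds 2 (Rgs10 and Rgs14) and the RZ subfamily 1 (Rgs19).

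Of the 11 probes, 1 passed the test without pairing of arrays, that of Rgs1, which was higher in Dex, and none passed when arrays of like replicate number were paired as a block (Rgs1 adjusted p = 0.195). Over all 41012 probes, 0.778% passed limma's two-sided test at an adjusted p of 0.05, and 0.563% passed it in the direction of higher signal in Dex. In the unpaired fit Rgs1 signal rose 3.20-fold with dexamethasone, while Rgs2, Rgs10 and Rgs16 had higher and Rgs14 lower values on every Dex array than on any Control array without passing the test. Both probes of Rgs19 gave differences within 0.01 of 0 on the log2 scale. The 4 Dex arrays lay wholly on one side of the 4 Control arrays for 5 of the 11 probes, those of Rgs1, Rgs2, Rgs10, Rgs14 and Rgs16, against 9.1% of all probes. An exact two-sided permutation test gives such a probe p = 0.0286, the smallest value that 4 against 4 arrays allow.

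A limit on every result is the slide, a glass that holds several arrays. Control 2, Control 3 and Control 4 shared one slide and Dex 1, Dex 2 and Dex 4 another, so slide and treatment cannot be told apart on these 2 slides. Control 1 and Dex 3 shared the other, and their difference is given for each member as the value within a slide. A limma fit with the slide as a fixed block estimates the same difference. Control 1 and Dex 3 are fitted exactly in it, so its spread comes from the arrays on the 2 other slides. It gave the 11 probes adjusted p of 0.771 to 0.993 while calling 1 of all 41012 probes. By the flag that marks a probe as well above background, arrays also differed in how many probes were detected, with 28665 on Control 1, 26471 on Dex 1 and 24908 on Dex 2 against 33148 to 34472 on the others. The median SD over all probes was 0.28 on the Controls and 0.50 on the Dex arrays. The part of these differences in the results was not tested.

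**Figure D1:**
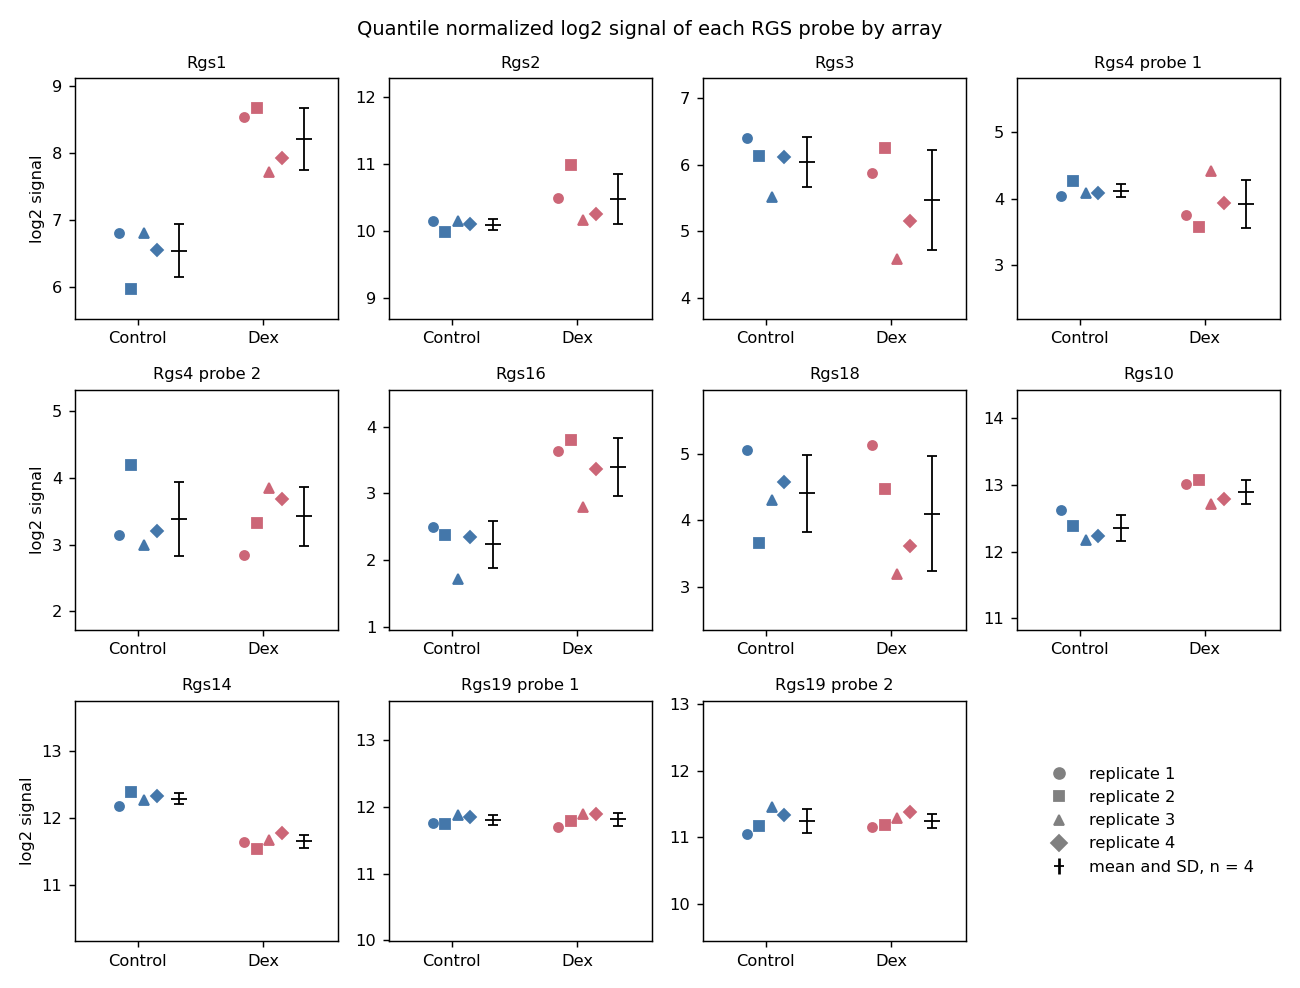
Quantile normalized log2 signal (vertical axis, the same height of scale in each panel) of the 11 RGS probes on the 4 Control and 4 Dex arrays, with the replicate number as the point shape and the mean and SD in black. Rgs1, Rgs2, Rgs10 and Rgs16 are higher and Rgs14 lower on all 4 Dex arrays than on any Control, and Dex 1 and Dex 2 lie above Dex 3 and Dex 4 for Rgs1, Rgs2, Rgs3, Rgs10, Rgs16 and Rgs18.

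Sequences just before the transcription start are shown for Rgs1 and Rgs14, the members with the largest rise and the clearest lower values in Dex. They come from RefSeq on the assembly GRCr8, read 5′ to 3′ on the strand of the gene, and end at the base before the start. The Rgs1 stretch is chr13:58573188-58573437 and the Rgs14 stretch chr17:9268234-9268483, both on the minus strand. Capitals mark the matches found.
Rgs1: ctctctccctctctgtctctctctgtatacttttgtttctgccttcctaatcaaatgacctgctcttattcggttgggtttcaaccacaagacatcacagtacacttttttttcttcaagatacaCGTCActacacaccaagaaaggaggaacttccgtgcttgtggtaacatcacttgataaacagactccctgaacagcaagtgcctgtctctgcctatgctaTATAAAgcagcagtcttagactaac
Rgs14: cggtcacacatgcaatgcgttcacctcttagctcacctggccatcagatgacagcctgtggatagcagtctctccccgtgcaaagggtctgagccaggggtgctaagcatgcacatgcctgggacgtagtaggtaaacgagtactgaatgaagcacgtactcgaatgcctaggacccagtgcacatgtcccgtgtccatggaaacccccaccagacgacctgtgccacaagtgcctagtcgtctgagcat
Windows of 250 bases before to 50 bases after the start were searched on both strands for short motifs. AGAACA, the core of a glucocorticoid response element arm, was present in 20.7% of 33469 rat promoters and in 1 of the 9 member windows, that of Rgs3 at -247. TGACG, the core of a cyclic AMP response element, was present in 21.2% of promoters and in 4 member windows, at -125 in Rgs1, -216 in Rgs2, -29 in Rgs3 and -153 in Rgs4. TATAAA, the box bound by the TBP protein, was present in 14.2% of promoters and in 3 member windows, at -25 in Rgs1, -184 in Rgs3 and -42 in Rgs4. The matches do not overlap each other. A match is a run of letters and not a site that was measured, and the Rgs14 window held none of the motifs.

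Probes are shown for Rgs10 and Rgs16, 2 members with separate groups, and for Rgs3 and Rgs18, whose values spread widely. Each is read 5′ to 3′ as the array file gives it, in lower case since no part is singled out.
Rgs10: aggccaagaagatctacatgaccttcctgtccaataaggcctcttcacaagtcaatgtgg
Rgs16: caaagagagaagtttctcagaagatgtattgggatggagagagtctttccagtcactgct
Rgs3: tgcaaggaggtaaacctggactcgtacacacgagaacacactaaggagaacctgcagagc
Rgs18: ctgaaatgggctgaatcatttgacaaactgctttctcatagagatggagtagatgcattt
On the rat build rn3, which the array file uses, the Rgs10 probe lies at chr1:187784730-187784789 as 60 bases in 1 block. The probes of Rgs16 (chr13:68822446-68823167), Rgs3 (chr5:79712237-79713254) and Rgs18 (chr13:58624208-58642317) span 722, 1018 and 18110 bases, so their 60 bases come from separate blocks of the genome. Placement of the probes in coding sequence or untranslated regions was not determined here. Of the 9 members, 5 lie on chromosome 13 of this build. Rgs2, Rgs1 and Rgs18 are neighbors among the members there, with 231.7 kb between the probes of Rgs2 and Rgs1 and 487.4 kb between those of Rgs1 and Rgs18. Of these 3 neighbors, Rgs1 alone passed the test. Rgs16 lies 10180.1 kb beyond Rgs18, and Rgs4 16725.1 kb beyond Rgs16.

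Rgs1 is a regulator of Gi and Gq signals known from activated lymphocytes, where it dampens responses to chemokines. Its probe (chr13:58136772-58136831 on rn3) was at 6.81, 5.97, 6.81 and 6.55 on Control 1 to 4. On Dex 1 to 4 it was at 8.54, 8.67, 7.72 and 7.93. All Dex arrays lay above all Control arrays, and Dex 1 and Dex 2 lay highest. The mean rose from 6.54 ± 0.40 to 8.22 ± 0.46 (SD, n = 4), a log2 fold change of 1.68 with a standard error of 0.29, a 95% interval of 1.02 to 2.34 and a limma adjusted p of 0.0493. Among all probes its log2 fold change stood at percentile 99.5, and by p it was number 313 of 319 called probes. Dex minus Control of the same replicate number was 1.73, 2.70, 0.92 and 1.38 for replicates 1 to 4. Within the shared slide, Dex 3 minus Control 1 was 0.91. The call is at the edge of the threshold: it was lost when any 1 of the 8 arrays was left out, with log2 fold changes of 1.49 to 1.84 and adjusted p of 0.053 to 0.170, and also in the paired fit. It was also lost with arrays scaled to their 75th percentile (1.73, adjusted p = 0.0646), while normexp background correction gave 1.08 (adjusted p = 0.0251). The call was kept with dim probes left out (1.68, adjusted p = 0.0280), with the deposited log2 values (1.68, adjusted p = 0.0495) and with the slide as a random block (1.81, adjusted p = 0.00431). The random block estimated a correlation within slides of -0.235, and a negative value narrows the error of a difference between slides. That fit called 1838 of all probes and does not correct for the slide. With the slide as a fixed block, where the pair on the shared slide alone informs the difference of 0.91, the adjusted p was 0.771.

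The symbols whose values followed Rgs1 most closely over the 8 arrays, among 10673 named probes well above background on all arrays, were Cd164, Cstb and Rilpl2. Pearson's r was 0.993, 0.993 and 0.992. Cd164 encodes a sialomucin of the cell surface and endosomes, and its log2 fold change was 0.47 (limma adjusted p = 0.278). Cstb, the cysteine protease inhibitor cystatin B, had a log2 fold change of 0.60 (adjusted p = 0.140). Rilpl2 had a log2 fold change of 1.10 (adjusted p = 0.054). The 8 points share the treatment groups, the slides and the higher values on Dex 1 and Dex 2, so these r values are descriptions of the 8 arrays.

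Rgs16, an R4 member that acts on Gi and Gq and limits migration of lymphocytes, was near background. Its signal was 2.50, 2.38, 1.71 and 2.35 on Control 1 to 4, none of which was well above background. On Dex 1 to 4 it was 3.63, 3.80, 2.80 and 3.36, and 2 of the 4 were well above background. The groups did not overlap, with Dex 3 the lowest of the Dex arrays. The measured means were 2.23 ± 0.36 and 3.40 ± 0.44 (SD, n = 4), and the log2 difference of 1.16 (95% interval 0.53 to 1.79) had a limma adjusted p of 0.137. The Dex mean was 1.54 times the lowest signal that counted as well above background on the Control arrays, which is no strict lower bound, since 2 of the Dex arrays were themselves not well above background. The 4 differences of like replicate number were 1.14, 1.42, 1.09 and 1.01. Within the shared slide the difference was 0.30. With another background correction (normexp) it was 0.13.

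Rgs2, which restrains Gq signals and also binds adenylyl cyclase, was at 10.15, 9.98, 10.15 and 10.10 on Control 1 to 4. The Dex arrays 1 to 4 read 10.50, 10.99, 10.16 and 10.26. The groups did not overlap, yet Dex 3 at 10.16 lay next to the highest Control, and the Dex arrays spread more widely than the Controls. The means were 10.09 ± 0.08 and 10.48 ± 0.37 (SD, n = 4), a log2 difference of 0.39 with a 95% interval of -0.09 to 0.86 (limma adjusted p = 0.583). With 1 array left out it was 0.21 to 0.49, lowest without Dex 2. Within the shared slide the difference was 0.01.

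Rgs3, a regulator of Gi and Gq made in several isoforms, was at 6.40, 6.13, 5.51 and 6.11 on Control 1 to 4. On Dex 1 to 4 it was at 5.88, 6.25, 4.58 and 5.15. Dex 3 and Dex 4 lay below all Controls, while Dex 1 and Dex 2 lay among them. The log2 difference was -0.58 with a 95% interval of -1.45 to 0.30 (limma adjusted p = 0.677). With 1 array left out it was -0.84 (without Dex 2) to -0.28 (without Dex 3). Within the shared slide it was -1.82, with an unadjusted p of 0.0235 in the limma fit with the slide as a fixed block and an adjusted p of 0.771.

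Rgs18, known from platelets and megakaryocytes, had a similar split. It was at 5.06, 3.66, 4.31 and 4.58 on Control 1 to 4. On Dex 1 to 4 it was at 5.13, 4.47, 3.19 and 3.62, and it was well above background on 3 of the 4 Dex arrays and all Controls. The groups overlapped, Dex 1 being the highest array of all and Dex 3 the lowest. The log2 difference was -0.30 with a 95% interval of -1.37 to 0.77 (limma adjusted p = 0.875), and it was -1.87 within the shared slide. The mean level of 5 megakaryocyte and platelet markers on the array was 5.63 to 5.88 on the Controls and 5.05 to 6.13 on the Dex arrays, lowest on Dex 2.

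Rgs4, best known as a regulator of Gi and Gq in the brain, was dim by both probes. The first probe (chr13:85548287-85548346) was at 4.04 to 4.27 on the Controls and 3.58 to 4.42 on the Dex arrays, with Dex 3 highest and Dex 2 lowest. It was well above background on 4 Control and 2 Dex arrays. The other probe (chr13:85550968-85551027) was at 3.00 to 4.20 on the Controls and 2.85 to 3.85 on the Dex arrays, well above background on 2 arrays of each group. The groups overlapped by both probes, whose log2 differences of -0.20 (95% interval -0.67 to 0.27) and 0.04 (-0.72 to 0.79) had opposite signs. Their limma adjusted p were 0.796 and 0.980. Within the shared slide the differences were 0.38 and 0.71.

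By the brightest probe, Dex 1 and Dex 2 both read above Dex 3 and Dex 4 for 6 of the 9 members, 5 of the R4 subfamily and Rgs10. The same split was present in 48.3% of all probes, so it is common on these arrays. Dex 1 and Dex 2 are also the Dex arrays with the fewest probes well above background. Without them and Control 1, the array with the fewest among the Controls, 3 Control and 2 Dex arrays remained, and the log2 fold change of Rgs1 was 1.38 (limma adjusted p = 0.0441), in a fit chosen after seeing the data that called 11.4% of all probes. No slide held both groups in that fit, so slide and treatment cannot be told apart in it. Rgs3 was at -1.05 and Rgs2 at 0.14 in the same fit, neither of which passed.

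Rgs10 and Rgs14 of the R12 subfamily differed in opposite directions, and neither passed the test. Rgs10, a small protein built of little more than the RGS domain that acts on Gi, was at 12.62, 12.39, 12.18 and 12.23 on Control 1 to 4. The Dex arrays 1 to 4 read 13.02, 13.08, 12.71 and 12.79. The groups did not overlap, although Control 1 at 12.62 lay close to Dex 3 at 12.71. The means were 12.35 ± 0.20 and 12.90 ± 0.18 (SD, n = 4), a 1.46-fold difference with a log2 value of 0.54 and a 95% interval of 0.15 to 0.93. Its limma adjusted p was 0.280. The differences of like replicate number were 0.40, 0.69, 0.53 and 0.56, and the value within the shared slide was 0.09.

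Rgs14, which joins the RGS domain to Ras binding domains and a GoLoco motif that holds Gi in its GDP form, was at 12.18, 12.38, 12.26 and 12.32 on Control 1 to 4. On Dex 1 to 4 its probe (chr17:15293763-15293822) was at 11.64, 11.53, 11.66 and 11.77. The groups did not overlap, and both were tight. The means of 12.28 ± 0.09 and 11.65 ± 0.10 (SD, n = 4) differed by -0.63 on the log2 scale, 1.55-fold, with a 95% interval of -0.95 to -0.32. The limma adjusted p was 0.110, so it did not pass over all probes. Its differences of like replicate number were -0.54, -0.85, -0.60 and -0.55, and within the shared slide it was -0.52. Over all alternatives its log2 difference stayed between -0.68 and -0.52. It passed when dim probes were left out (adjusted p = 0.0437), with normexp (0.00391) and with the slide as a random block (0.0141), and in no other limma fit at an adjusted p of 0.05. As said for Rgs1, the random block does not correct for the slide.

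Rgs19, also known as GAIP, is a palmitoylated regulator of Gi. Its first probe (chr3:170746180-170746239) was at 11.75, 11.74, 11.88 and 11.85 on Control 1 to 4 and at 11.69, 11.78, 11.89 and 11.89 on Dex 1 to 4. The other probe (chr3:170746412-170746471) was at 11.05, 11.17, 11.45 and 11.33 on Control 1 to 4 and at 11.15, 11.18, 11.29 and 11.38 on Dex 1 to 4. The groups overlapped almost wholly by both probes. The log2 differences were 0.01 (95% interval -0.31 to 0.32) and 0.00 (-0.35 to 0.35), with limma adjusted p of 0.992 and 0.998. Within the shared slide they were 0.14 and 0.24.

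**Figure D2:**
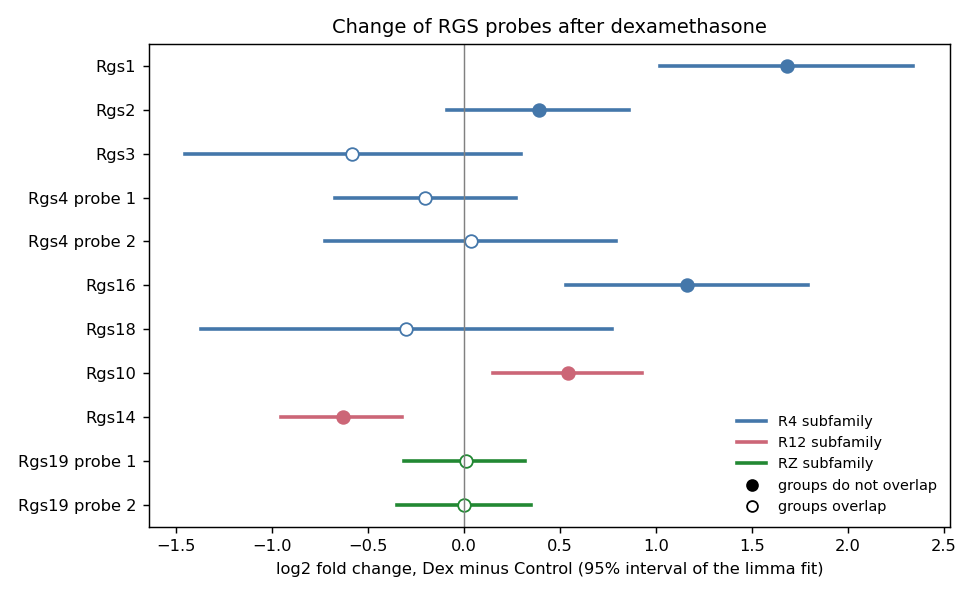
Log2 fold change of each RGS probe (horizontal axis, Dex minus Control) with the 95% interval of the limma fit across 8 arrays, colored by subfamily and filled where the groups do not overlap. The intervals of Rgs1, Rgs16 and Rgs10 lie above 0 and that of Rgs14 below 0, and of these Rgs1 alone has an adjusted p below 0.05. The Rgs16 probe was well above background on none of the Control arrays, so its point and interval are those of the measured signals and not of a detected level.

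The statistic that the methods of the study name, the difference of the means over the sum of the SDs, treats tight groups differently. With an unadjusted one-tailed p of 0.01 and a change of at least 1.2-fold, it called 6.79% of all probes. It called 4 of the 11 RGS probes, Rgs1, Rgs10 and Rgs16 as higher and Rgs14 as lower in Dex. With the replicate number as a block limma called 0.198% of all probes and none of the RGS probes, whose unadjusted p was 0.00303 for Rgs1.

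**Figure D3:**
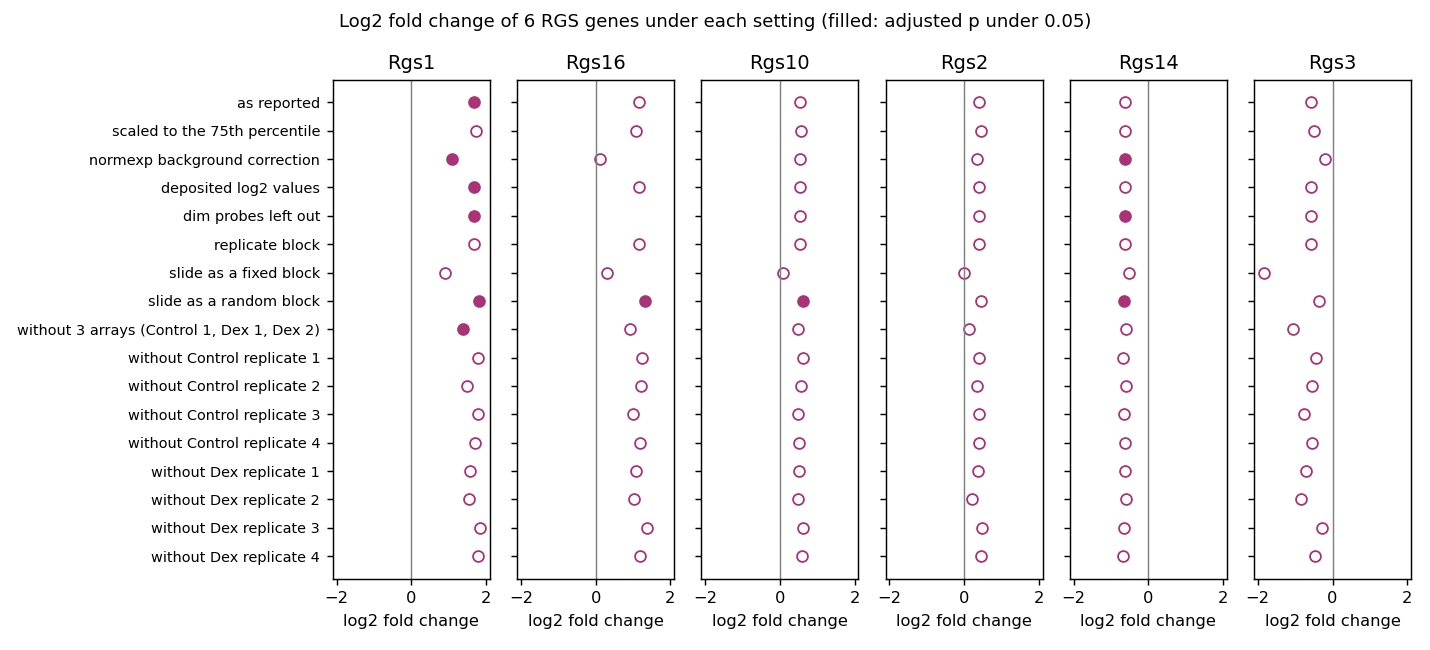
Log2 fold change (horizontal axis, Dex minus Control) of 6 RGS genes under each way of processing, with the values of the text in the top row, filled where the limma adjusted p was below 0.05. Rgs1 stays between 0.91 and 1.84 and Rgs14 between -0.68 and -0.52. Rgs16 has no point where dim probes were left out, since its probe is one of them.

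The members were set beside other genes of the pathway, each by its brightest probe. Of the 9 members, 5 were higher and 4 lower in Dex. Their median log2 fold change was 0.01, against 0.00 over all probes. An unadjusted limma p under 0.05 was found for 4 of the 9 members and for 10.6% of all probes, the share beside which the counts at this p in the other lists stand. The list of other RGS genes holds further family members, genes with an RGS domain, and Gpsm1 and Gpsm3. Gpsm1 (-0.25) and Gpsm3 (-0.59) have GoLoco motifs and no RGS domain. Of the 18 genes of this list on the array, 8 were higher and 10 lower, with a median of -0.25. None of them passed, and 3 of the 18, Gpsm3 among them, had an unadjusted p under 0.05, against 10.6% of all probes. Axin2, a scaffold that restrains Wnt signaling, differed most upward among those well above background, at 0.73 (adjusted p = 0.110). Gpsm3, which binds Gi through GoLoco motifs, differed most downward among them, at -0.59 (adjusted p = 0.292).

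The 16 G alpha genes, which include classes beyond Gi and Gq, had a median of 0.10, with 10 higher and 6 lower. None passed and 3 of the 16 had an unadjusted limma p under 0.05, against 10.6% of all probes, and 1 of the 3, Gnat2, was well above background on no array. Among genes detected throughout the group with the higher mean, the widest differences were Gna13 at 0.81 (adjusted p = 0.628) and Gnaz at -0.56 (adjusted p = 0.798). The 14 genes of G beta and gamma subunits had a median of -0.23, with 4 higher and 10 lower. None passed and 3 of the 14 had an unadjusted p under 0.05, and by the same rule the widest differences were Gng8 at 0.41 (adjusted p = 0.397) and Gnb4 at -0.94 (adjusted p = 0.327).

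Upstream and downstream genes gave no call either. Of 29 receptors of lymphocytes, 14 were higher and 15 lower, 8 with an unadjusted limma p under 0.05 against 10.6% of all probes, and the median was -0.03. The chemokine receptor Ccr6 differed most, from 3.23 ± 0.47 to 5.65 ± 0.92 (SD, n = 4), at 2.42 (adjusted p = 0.0717), and the lysophosphatidic acid receptor Lpar1 was at -1.14 (adjusted p = 0.825). The 8 receptor kinases and arrestins, which end signals at the receptor, split 4 and 4 with a median of 0.01, and 2 of the 8 had an unadjusted p under 0.05. Grk6 was at 0.65 (adjusted p = 0.104) and Grk2 at -0.40 (adjusted p = 0.546). Of 15 adenylyl cyclase, phospholipase C beta and related effector genes, 4 were higher and 11 lower, 2 of the 15 with an unadjusted p under 0.05, and the median was -0.10. Adcy7 was at 0.70 (adjusted p = 0.531) and Adcy5 at -0.93 (adjusted p = 0.257).

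**Figure D4:**
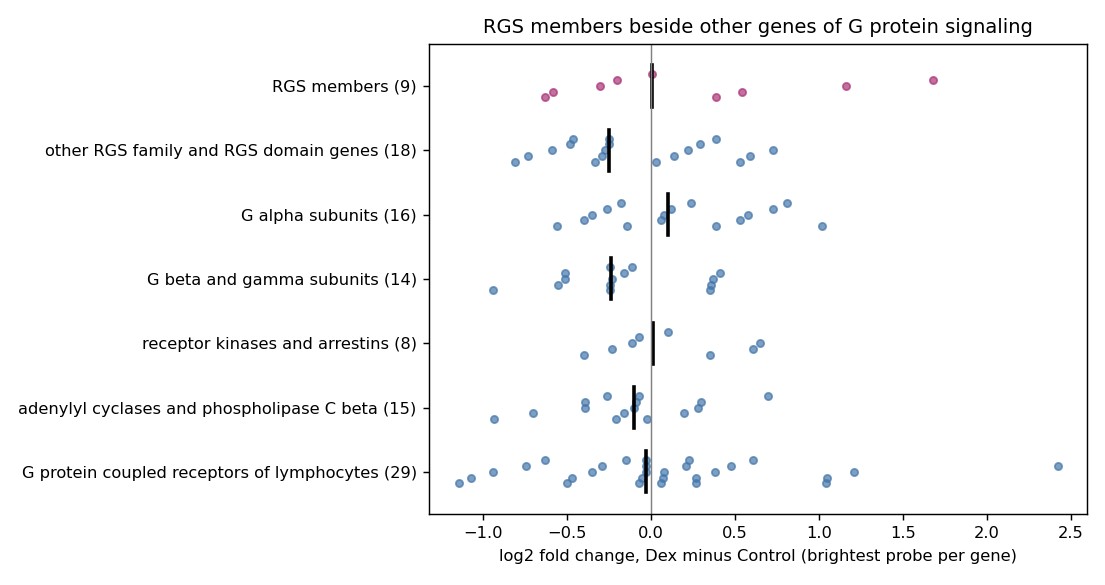
Log2 fold change (horizontal axis, Dex minus Control, brightest probe per gene) of the 9 RGS members and of 6 groups of other genes of G protein signaling, with the number of genes on the array in parentheses and the median as a black line. Rgs1 at 1.68 is the only gene drawn that passed the test, and Ccr6 at 2.42 is the widest difference among the others.

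In bulk RNA, a change in the cells present and a change per cell cannot be told apart. All 16 T lineage markers on the array were flagged well above background on every array, and 15 of them had a value on all 8, Cd8b having lost its Control 1 spot as an outlier. The mean level of these 15 was 12.44 to 12.59 on the Controls and 12.03 to 12.46 on the Dex arrays. In Dex 3 of the 16 were higher and 13 lower, with a median log2 fold change of -0.15, and none passed, while 4 had an unadjusted limma p under 0.05. Among them Cd5, a brake on T cell receptor signals, at -0.70 (adjusted p = 0.197), and Ptcra, the alpha chain of the pre-T cell receptor, at -0.61 (adjusted p = 0.154), were lower on every Dex array than on any Control. Rag1, part of the recombinase of antigen receptor genes, was at -0.59 (adjusted p = 0.436). Cd8b, a chain of the CD8 coreceptor, was the other way, at 0.52 (adjusted p = 0.326), with 16.42 to 16.51 on the Dex arrays and 15.81 to 16.19 on the 3 Controls with a value. The 8 B cell markers (5 higher, 3 lower in Dex) had mean levels of 5.81 to 6.42 on the Controls and 5.75 to 6.34 on the Dex arrays, and the 8 NK and innate lymphoid markers (3 higher, 5 lower) 5.35 to 5.97 and 5.16 to 5.74. The 13 myeloid markers (9 higher, 4 lower) were at 7.04 to 7.32 and 7.15 to 7.76, and 3 of the 13 had an unadjusted limma p under 0.05. Of these, Mrc1 at 2.12 (adjusted p = 0.087) and C1qc at 0.97 (adjusted p = 0.327) were higher on every Dex array than on any Control. Cd14 differed most downward in that list, at -0.77 (adjusted p = 0.556). The 3 erythroid markers (all higher) were at 8.29 to 9.94 on the Controls and 8.72 to 10.19 on the Dex arrays. The mean level of the 15 endothelial, stromal and epithelial markers was higher on all Dex arrays, at 5.73 to 5.89 on the Controls and 6.05 to 6.31 on the Dex arrays, with 12 of them higher and 3 lower in Dex and 3 not well above background on any array. The lower markers were Vwf, which lay lower on every Dex array (-0.53, limma adjusted p = 0.302), Kdr (-0.68, adjusted p = 0.719) and Col1a2 (-0.76, adjusted p = 0.609). Of the 15 markers, 4 had an unadjusted limma p under 0.05. Pdgfrb differed most upward, at 1.72 (adjusted p = 0.16), and was well above background on 2 Control and 3 Dex arrays. Of the markers in all lists 1 passed the test, against 0.778% of all probes. It was Pecam1, an adhesion molecule of the endothelial, stromal and epithelial list, which was higher in Dex by 1.36 (limma adjusted p = 0.0208). The part of any marker list in the RGS values was not tested.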

How the data were processed

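Gene expression was measured on 4 Control and 4 Dex arrays. The authors extracted the scans with Feature Extraction 9.5.3.1, and the deposited intensity of each spot is corrected for background but not yet normalized across the set. The same deposited output has 0 or 1 flags for outlier spots, saturated spots and spots well above background, and probe positions on rn3. The authors also deposited log2 values, quantile normalized and summarized per probe by median polish. These were recomputed from the intensity by the same steps and differed by a median of at most 0.00158 on any array.

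Control spots and outlier spots (16 missing values) were left out, and 0 of 43379 spots were saturated. The fit was limma 3.58.1 in R 4.3.3 (lmFit and eBayes, two-sided, Benjamini-Hochberg over 41012 probes at 0.05), tested on simulated data. Symbols of 10735 probes were matched by accession to RefSeq, and promoters were matched for all 9 members. The brightest probe stood for a gene. Named genes were all members, called genes of each list, the largest rise and fall of each pathway list among genes well above background on all arrays of the brighter group, and the 3 nearest to a called member by Pearson's r. Pecam1, the 1 marker that passed, the 3 lower markers of its list, Pdgfrb, Cd5, Ptcra, Rag1, Cd8b, Mrc1, C1qc, Cd14, Gpsm1 and Gnat2 were named after their values were seen. The members and lists were chosen with earlier results of these data known.

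The labels give both groups the numbers 1 to 4. Once group means were subtracted, arrays of like number correlated at 0.40, 0.13, 0.55 and 0.18, all above 0.1. Unlike numbers also correlated: r was 0.40 for Control 1 and Dex 2, 0.39 for Control 3 and Dex 4, and 0.19 for Control 2 and Dex 1, which exceeds the 0.13 of the pair numbered 2. These correlations therefore do not settle whether the numbers pair the arrays. The reported values come from the fit without pairing, and the paired fit is given as an alternative beside the calls it changes. The 8 arrays, and signal near background, limit the precision. Alternatives were 75th percentile scaling, normexp with an offset of 50, the deposited log2 values, leaving out dim probes, the replicate block, the slide as a fixed or random block, leaving out arrays, any probe of a gene, and the statistic of the methods over all 70 assignments of arrays. Figures used matplotlib 3.10.9.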

Additional observations from a re-analysis of the deposited data

Results flagged for a closer look

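The second Rgs4 probe, at chr13:85550968-85551027 on rn3, had 1 Control array far from the other 3. Control 2 was at 4.20 and the other Controls at 3.00 to 3.20, so that the gap to the nearest was 0.835 of the whole range of the group, above Dixon's limit of 0.829 for 4 samples. Of 22 groups of 4 arrays (11 probes, Control and Dex), 1 was past the limit, and chance alone puts about 1 in 20 past it. The scanner flag put this probe well above background on 2 of the 4 Controls.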

How the results depend on the processing

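Calls over all probes numbered 166 with 75th percentile scaling (133 higher, 33 lower), 915 with normexp (497 and 418), 562 without dim probes (388 and 174), 81 with the replicate block (75 and 6), 1 and 1838 with the slide as a fixed or random block, 1593 at a nominal limma p of 0.01 and 1.2-fold, and 2784 with the statistic of the methods (1472 and 1312), against 319 (231 and 88). Leaving out 1 array gave 96 to 249. RGS genes called, and RGS probes likewise, numbered 1 as reported, 0 with 75th percentile scaling, the replicate block, the fixed slide block (in which only Control 1 and Dex 3 inform the difference) or any 1 array left out, 2 with normexp or without dim probes, 3 at the nominal p and 4 with the random slide block or the statistic of the methods. Genes of the other lists called numbered 0 as reported. Beta and gamma subunits had 1 with normexp, the random block and the nominal p, and 2 with the statistic of the methods. Kinases and arrestins had 1 with normexp, without dim probes and at the nominal p, and 2 with the random block and the statistic of the methods. Cyclases and phospholipases had 2, 2 and 1 with the random block, the statistic of the methods and the nominal p. Receptors had 1 with normexp, 1 without dim probes, 7 with the random block, 6 with the statistic of the methods and 5 at the nominal p. Other RGS genes had 1 with normexp, without dim probes, with the random block and at the nominal p, and 3 with the statistic of the methods. Without Control 1, Dex 1 and Dex 2, an alternative chosen after seeing the data, no slide held both groups. It called 4671 probes (2197 higher, 2474 lower), with 3 alpha, 4 beta and gamma, 3 kinase and arrestin, 2 cyclase and phospholipase, 3 receptor and 6 other RGS genes. The random block had an estimated correlation within slides of -0.235, so it does not correct for the slide. The causes were not tested. Direction turned for probes near 0. The second Rgs4 probe was at -0.39 with 75th percentile scaling, -0.08 with the random slide block and -0.11 to 0.31 with 1 array left out. The first was at 0.38 with the fixed slide block and 0.03 without the 3 arrays. The first Rgs19 probe was at -0.01 with 75th percentile scaling, -0.02 with the random block and -0.02 to 0.05 with 1 array left out, and the other at 0.00, 0.24 with the fixed block, 0.02 without the 3 arrays and -0.07 to 0.07. Rgs18 was at -0.64 to 0.01 with 1 array left out, above 0 without Dex 3 alone. Rgs1, Rgs2, Rgs3, Rgs10, Rgs14 and Rgs16 kept their direction under all alternatives. With the replicate block the adjusted p was 0.195 for Rgs1, 0.256 for Rgs14, 0.109 for Rgs16 and 0.289 for Rgs10.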
